A study of Mus musculus with 38 samples.

Results

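The 10 genes described here encode the mouse MHC class I antigen presentation machinery: the heavy chains H2-K1, H2-D1, H2-Q4, H2-Q6, H2-Q7 and H2-T23, the light chain B2m, the peptide transporter subunits Tap1 and Tap2, and tapasin (Tapbp). They were chosen by symbol, with earlier results of these data known but by a rule that uses no measured value, and all 10 were found among the 53801 genes of the counts sheet, of which 25246 had a count in at least 1 library. The data were 38 bulk RNA-seq libraries of microglia, sorted as CD11b+ cells from adult mouse brain by flow cytometry and sequenced from the 3′ end of polyadenylated RNA. All 10 genes passed the filter on low counts, as did 11189 genes in all.

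DNL919 is taken here as the study's antibody that activates TREM2, built on a transport vehicle (ATV) that binds the transferrin receptor. Mice received a single dose of 10 mg/kg DNL919 and gave microglia at day 1, day 4 or day 7 (n = 8 mice each). The controls were 10 mg/kg ATV:DNP02, taken here as the isotype antibody on the same vehicle (n = 8), and vehicle alone (n = 6), both at day 1. Every mouse, controls included, was a C57BL/6J animal of 3 months, hemizygous for a human TREM2 BAC transgene (huTrem2 BACtg) and homozygous for the humanized transferrin receptor knock-in (hTfR KI). Per the labels, the transgene holds human TREM2 and its regulatory elements, and an exon each of the neighbouring genes TREML1 and TREML2 was deleted from it. No control was collected at day 4 or day 7, so those days were set against the day 1 controls, and the time since the dose cannot be told apart from the day of collection. The 4 takedown batches each held every group, and batches 1 and 2 were female and batches 3 and 4 male, so sex and batch pair cannot be told apart. The labels name the tissue region as cortex and hippocampus in one field and as brain without cerebellum in another.

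MHC class I molecules display short peptides from proteins made inside the cell to CD8+ T cells and to receptors of natural killer cells. Peptides are cut by the proteasome, pumped into the endoplasmic reticulum by the Tap1-Tap2 transporter, handed over with the help of tapasin, and bound in the groove of a heavy chain that is held in shape by beta-2-microglobulin. In microglia, as in most cells, the genes are expressed at rest and are inducible by interferons, through interferon-stimulated response elements read by interferon regulatory factors and their partners, and by the transactivator Nlrc5.

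The promoters are shown as a description, and whether they bear on how the members responded was not tested. Of the 10 genes, 9 had an entry in the RefSeq promoter table for GRCm38.p6 (250 bases before to 50 bases after the start of the gene), and each of the lines below is a stretch of 130 bases, 5′ to 3′ on the strand of the gene. Capitals mark 3 motifs that were chosen with the sequences in view and searched on both strands: GGGNNTTCC, a kappa B-like element; TTTCACTT, an interferon regulatory factor core; and a pair of TTTC repeats separated by any 2 bases, the spacing of an interferon-stimulated response element, which is GAAACTGAAA in the B2m line because the match lies on the opposite strand. TTTCACTT and the TTTC pair can overlap.
H2-K1: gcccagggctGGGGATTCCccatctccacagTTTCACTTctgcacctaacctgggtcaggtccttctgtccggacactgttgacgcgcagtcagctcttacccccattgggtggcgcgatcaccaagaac
H2-D1: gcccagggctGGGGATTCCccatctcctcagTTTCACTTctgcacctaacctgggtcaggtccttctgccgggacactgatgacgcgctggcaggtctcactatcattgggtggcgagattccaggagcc
H2-Q6: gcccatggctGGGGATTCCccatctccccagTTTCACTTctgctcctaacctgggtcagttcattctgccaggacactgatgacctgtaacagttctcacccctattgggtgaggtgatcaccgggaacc
H2-Q7: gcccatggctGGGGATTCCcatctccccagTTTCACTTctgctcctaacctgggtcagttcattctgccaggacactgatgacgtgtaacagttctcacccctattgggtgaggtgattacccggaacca
H2-Q4: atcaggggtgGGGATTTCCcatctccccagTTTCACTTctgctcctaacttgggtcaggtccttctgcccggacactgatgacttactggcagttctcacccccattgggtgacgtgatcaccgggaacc
H2-T23: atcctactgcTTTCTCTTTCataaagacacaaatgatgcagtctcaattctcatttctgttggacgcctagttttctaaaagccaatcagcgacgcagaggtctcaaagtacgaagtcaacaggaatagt
B2m: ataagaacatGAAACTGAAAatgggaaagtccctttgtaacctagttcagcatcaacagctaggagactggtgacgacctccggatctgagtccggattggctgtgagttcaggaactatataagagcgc

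The printed stretches lie at chr17:34000339-34000468 on the minus strand (H2-K1), chr17:35262913-35263042 on the plus strand (H2-D1), chr17:35424667-35424796 on the plus strand (H2-Q6), chr17:35439012-35439141 on the plus strand (H2-Q7), chr17:35379434-35379563 on the plus strand (H2-Q4), chr17:36032706-36032835 on the minus strand (H2-T23) and chr2:122147538-122147667 on the plus strand (B2m). H2-K1 has 2 entries with the same motifs, and the one with the lower start is shown. H2-K1, H2-D1, H2-Q4, H2-Q6 and H2-Q7 each held GGGNNTTCC and TTTCACTT in the same order, with 21 bases from start to start in H2-K1, H2-D1 and H2-Q6 and 20 bases in H2-Q4 and H2-Q7. Each of these motifs was thus in 5 of the 9 members, against 1.6% of the 32851 promoters of the table for TTTCACTT and 5.82% for GGGNNTTCC. These 5 promoters read alike over much of the printed stretch, and the motifs were chosen with them in view. The 5 matches are therefore not independent, and the shares are a description and not a test of enrichment. H2-T23 and B2m held the TTTC pair, which occurred in 3.44% of all promoters. CCAAT was found in all 9 members and in 37.4% of all promoters, and Tap1 and Tapbp held CCAAT alone of the 4 motifs. A match is a description of letters in this window and was not tested as a binding site. H2-Q4 carries the same pair as H2-Q6 and H2-Q7 and, as given below, was not called in any comparison. It had 321 counts in all 38 libraries, which limits what could be detected, so its lack of a call says nothing about the motifs.

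In the GRCm38 annotation the genes lie on chromosome 17, except B2m on chromosome 2 (chr2:122147686-122153083). The heavy chains are close copies, which bears on how reads could be assigned. Of all 50-base windows in the coding transcripts of H2-Q7 (chr17:35439155-35443773), 34.9% also occurred in another gene, against 32% for H2-Q6 (chr17:35424850-35430055), 28.8% for H2-T23, 24.3% for H2-Q4, 13.9% for H2-D1 and 6.87% for H2-K1. A 3′ library collects its reads near the end of the transcript, and the last 300 bases of each gene's longest coding transcript were examined. There the shared part was 0% for H2-Q7, 40.2% for H2-Q6, 50.6% for H2-T23, 45.4% for H2-Q4, 17.1% for H2-D1 and 0.797% for H2-K1. The genes that shared most of it with H2-Q6, H2-T23, H2-Q4 and H2-D1 lay outside the family. B2m shared no window with another gene, Tap1 and Tap2 shared under 1% of theirs and Tapbp shared 3.5%. Whether reads that match several genes were counted is not given in the sources used here. The split between H2-Q6 and H2-Q7 is thus uncertain for reads from the rest of the transcript. In the last 300 bases of its longest coding transcript H2-Q7 shared no window, but the ends of its other coding transcripts, of 4 in all, were not examined.

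Libraries held 1.65 to 6.42 M counts (1 M is 1000000 counts), with means of 4.17, 2.77 and 2.55 M counts at DNL919 day 1, day 4 and day 7, against 2.34 M counts in ATV:DNP02 and 2.27 M counts in vehicle. Microglial markers were abundant in every group: the 11 markers of the list that had a row summed to medians of 11901, 16110 and 15691 CPM (counts per 1000000 counts of the library) at DNL919 day 1, day 4 and day 7, against 19078 CPM in ATV:DNP02 and 17827 CPM in vehicle. The noncoding RNA Malat1 took a median of 2.35% of counts at DNL919 day 1, 3.60% at day 4 and 3.46% at day 7, against 5.76% in ATV:DNP02 and 6.26% in vehicle. Levels below are TMM-scaled CPM, which correct for the library total but not for gene length, so they are compared between groups and not between genes. Fold changes, standard errors and adjusted p-values are from limma-voom over all 11189 genes with Benjamini-Hochberg adjustment, and a gene was called below 0.05.

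After DNL919, 6 of the 10 genes were higher than in ATV:DNP02 on each of the 3 days and none was lower. At day 1 the 6 were H2-K1, H2-D1, H2-Q6, H2-Q7, H2-T23 and Tap1, when 35.8% of all genes tested were called in one direction or the other. At day 4 they were H2-K1, H2-D1, H2-Q6, H2-Q7, B2m and Tap1, when 1.81% of all genes were called, and the same 6 were called at day 7, when 1.51% of all genes were. The median log2 fold change of the 10 members was 0.92 at day 1, 1.49 at day 4 and 1.38 at day 7, against 0.01, 0.03 and 0.04 over all genes tested. The 3 comparisons share the 8 ATV:DNP02 libraries, and in bulk RNA fewer cells of a type and less RNA per cell cannot be told apart.

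**Figure D1:**
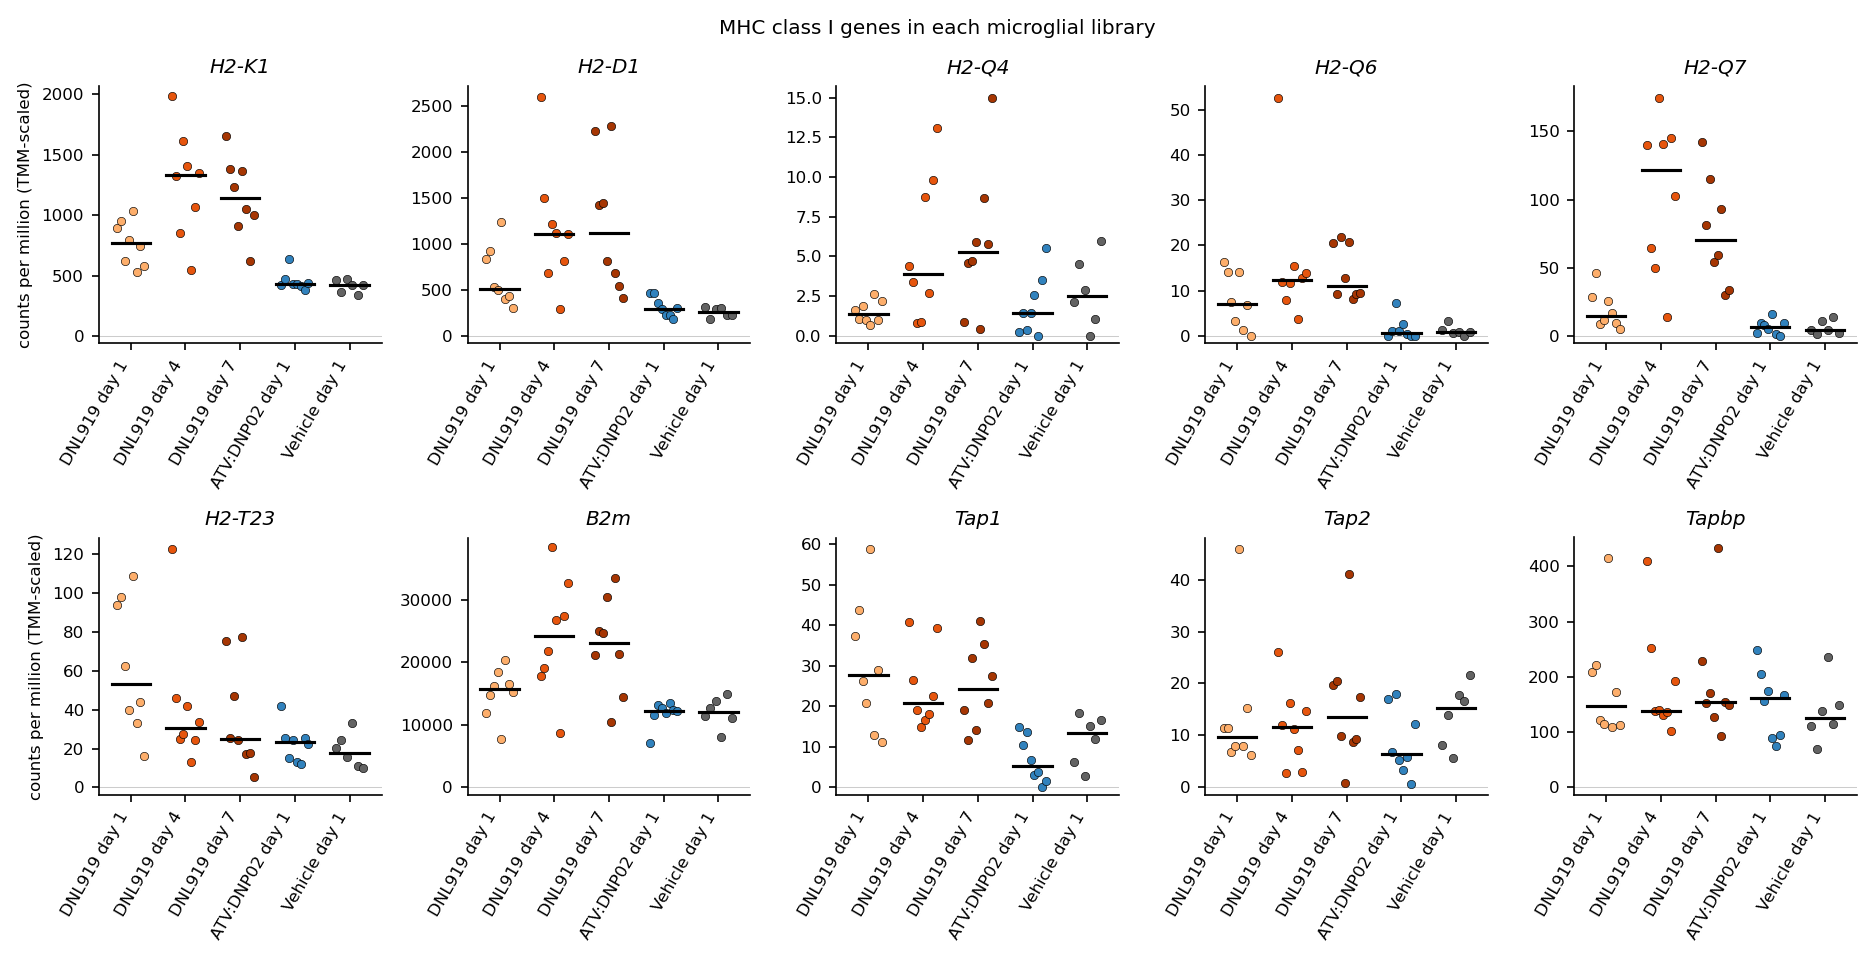
TMM-scaled CPM (vertical axes, linear, 1 panel per gene) in each of the 38 libraries, by group on the horizontal axis; points are mice and bars are group medians. H2-K1 medians were 767, 1336 and 1145 CPM at DNL919 day 1, day 4 and day 7, against 428 in ATV:DNP02 and 422 in vehicle, while Tapbp medians lay between 126 and 161 CPM in the 5 groups.

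The classical heavy chains H2-K1 and H2-D1, which present peptides to CD8+ T cells, rose at every time point. H2-K1 (chr17:33996017-34000333) ran from 533 to 1031 CPM with a median of 767 at DNL919 day 1, from 545 to 1988 with a median of 1336 at day 4 and from 620 to 1653 with a median of 1145 at day 7. In ATV:DNP02 it ran from 377 to 639 CPM with a median of 428, and in vehicle from 341 to 475 with a median of 422. The groups therefore overlapped at the edges: 5 of 8 DNL919 libraries at day 1, 7 of 8 at day 4 and 7 of 8 at day 7 stood above all 14 controls. Over ATV:DNP02, the log2 fold change of H2-K1 was 0.77 ± 0.17 at day 1 (adjusted p = 0.000384), 1.42 ± 0.17 at day 4 (adjusted p = 4.36e-07) and 1.33 ± 0.17 at day 7 (adjusted p = 4.67e-06; errors here and below are SE).

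H2-D1 (chr17:35262730-35267499) had a wider spread. Its lowest, median and highest values were 308, 512 and 1246 CPM at DNL919 day 1, 295, 1111 and 2601 CPM at day 4, and 414, 1123 and 2283 CPM at day 7. In ATV:DNP02 they were 188, 298 and 471 CPM, and in vehicle 188, 261 and 318 CPM. As for H2-K1, 5, 7 and 7 of the 8 DNL919 libraries at day 1, day 4 and day 7 were above every control. Over ATV:DNP02 this was a log2 fold change of 0.99 ± 0.26 at day 1 (adjusted p = 0.00201), 1.75 ± 0.26 at day 4 (adjusted p = 3.01e-05) and 1.84 ± 0.26 at day 7 (adjusted p = 1.34e-05). Both genes were higher in DNL919 than in ATV:DNP02 in 4 of 4 batches on each day, with differences in mean log2 CPM of 0.42 to 1.87 for H2-K1 and 0.63 to 2.49 for H2-D1. The ratio of H2-D1 to H2-K1 within a library was 0.21, 0.32 and 0.47 higher on the log2 scale at day 1, day 4 and day 7 than in ATV:DNP02, which an exact permutation test of 8 against 8 did not separate from 0 (adjusted p = 0.323, 0.184 and 0.176 over 12 ratio tests). That test ignores the batches. With assignments kept within a batch (1296 of them, chosen after seeing the data), the day 4 difference passed (adjusted p = 0.00926).

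H2-Q7 and H2-Q6, non-classical heavy chains of the Qa-2 family, had the largest fold changes of the 10 genes at day 4 and day 7. H2-Q7 was counted at 5.08 to 46.4 CPM with a median of 14.4 at DNL919 day 1, 14.1 to 175 CPM with a median of 121 at day 4, and 29.8 to 142 CPM with a median of 70.5 at day 7. In ATV:DNP02 the range was 0 to 15.8 CPM with a median of 6.43, and in vehicle 1.23 to 14.0 CPM with a median of 4.38. All 8 libraries of day 7 and 7 of 8 of day 4 exceeded every control, while at day 1 only 4 of 8 did. Set against ATV:DNP02, its log2 fold change was 2.26 ± 0.73 at day 1 (adjusted p = 0.0121), 4.31 ± 0.72 at day 4 (adjusted p = 2.37e-04) and 4.18 ± 0.72 at day 7 (adjusted p = 4.30e-04). Its day 1 call was lost without ATV:DNP02 replicate 1, at a log2 fold change of 1.86 (adjusted p = 0.0526). It held in 13 of 19 other settings.

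H2-Q6, the neighbouring gene, was near 0 in the controls and rose on every day. It had 0, 7.12 and 16.4 CPM as lowest, median and highest at DNL919 day 1, 3.64, 12.4 and 52.6 CPM at day 4, and 8.06, 11.1 and 21.8 CPM at day 7, against 0, 0.696 and 7.19 CPM in ATV:DNP02 and 0, 0.878 and 3.27 CPM in vehicle. These levels rest on few counts, 319, 379 and 315 over the 8 libraries of DNL919 day 1, day 4 and day 7, against 30 over the 8 of ATV:DNP02 and 17 over the 6 of vehicle. The low-count filter asks for a minimum count of 10, and of the control libraries only ATV:DNP02 replicate 3 reached it, with 18 counts. H2-Q6 therefore entered the tests through its DNL919 libraries, so its calls are not independent of the filter. At day 7 no library overlapped a control. The log2 fold change was 2.97 ± 0.76 at day 1 (adjusted p = 0.00179), 3.92 ± 0.75 at day 4 (adjusted p = 0.00154) and 4.10 ± 0.75 at day 7 (adjusted p = 9.88e-04), and both H2-Q6 and H2-Q7 were higher than ATV:DNP02 in 4 of 4 batches on all 3 days.

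H2-Q4, a further gene of the Q region (chr17:35379617-35385290), was near the limit of detection, with 321 counts in all 38 libraries, and was called on no day. It had medians of 1.37, 3.88 and 5.25 CPM at DNL919 day 1, day 4 and day 7, against 1.45 CPM in ATV:DNP02 and 2.49 CPM in vehicle, and every DNL919 group overlapped both controls. Its log2 fold change over ATV:DNP02 was 0.07 at day 1 with a 95% interval of -1.42 to 1.55, 1.56 at day 4 (0.13 to 2.99) and 1.44 at day 7 (0.00 to 2.88), with adjusted p = 0.954, 0.346 and 0.427 in limma-voom. The interval at day 1 does not reach the fold changes of H2-Q6 and H2-Q7 on that day, but the difference between the genes was not tested.

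H2-T23 encodes Qa-1, which shows a leader peptide of other class I heavy chains to the NKG2A receptor of natural killer cells, and it was called at day 1 and not at day 4 or day 7. H2-T23 (chr17:36029773-36032855) had 16.0, 53.1 and 109 CPM as lowest, median and highest at DNL919 day 1, 13.2, 30.5 and 123 CPM at day 4, and 5.49, 25.01 and 77.6 CPM at day 7. The controls had 12.2, 23.2 and 41.9 CPM in ATV:DNP02 and 10.2, 17.9 and 33.1 CPM in vehicle. Of 8 libraries, 5 at day 1, 2 at day 4 and 3 at day 7 were above every control. In limma-voom the log2 fold change over ATV:DNP02 was 1.53 ± 0.32 at day 1 (adjusted p = 1.41e-04), 0.85 ± 0.33 at day 4 (adjusted p = 0.222) and 0.73 ± 0.34 at day 7 (adjusted p = 0.386). At day 4 it was called with library quality weights (0.91) and without the library lowest in Malat1 of each group (1.06, adjusted p = 0.0486). The ratio of H2-T23 to H2-K1 was 0.57 higher on the log2 scale than in ATV:DNP02 at day 1 and lower by 0.72 at day 4 and by 0.93 at day 7. None of the 3 passed the exact permutation test after adjustment (adjusted p = 0.184, 0.0936 and 0.0936), except that without DNL919 day 4 replicate 1 the day 4 difference was -0.88 (adjusted p = 0.041). With assignments kept within a batch, the day 4 difference passed the exact test (adjusted p = 0.0463).

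B2m, the light chain shared by all class I molecules, was called at day 4 and day 7 but not at day 1. It had 7733, 15716 and 20314 CPM as lowest, median and highest at DNL919 day 1, 8636, 24244 and 38399 CPM at day 4, and 10501, 23023 and 33467 CPM at day 7, against 7072, 12276 and 13454 CPM in ATV:DNP02 and 8133, 12074 and 14999 CPM in vehicle. Thus 5, 7 and 6 of the 8 libraries at day 1, day 4 and day 7 stood above every control, and the lowest library of each day lay within the range of the controls. The log2 fold change over ATV:DNP02 was 0.33 ± 0.20 at day 1 with a 95% interval of -0.07 to 0.73 (adjusted p = 0.207), 0.94 ± 0.20 at day 4 (adjusted p = 0.00456) and 0.87 ± 0.20 at day 7 (adjusted p = 0.0122). Without ATV:DNP02 replicate 1, the library with the lowest B2m, the day 7 value was 0.75 (adjusted p = 0.0503). Without the low-count filter, neither the day 4 value of 0.58 nor the day 7 value of 1.32 passed (adjusted p = 0.988 and 0.986), and the day 4 value then had an SE of 14.9. At day 1 B2m was called with library quality weights (0.44, adjusted p = 0.0119) and in females alone (0.45, adjusted p = 0.0119). The ratio of B2m to H2-K1 was lower in DNL919 than in ATV:DNP02 by 0.42, 0.48 and 0.43 on the log2 scale at day 1, day 4 and day 7, differences that did not pass the exact permutation test (adjusted p = 0.184, 0.0936 and 0.184). Kept within a batch, the exact test was passed at day 4 (adjusted p = 0.037).

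**Figure D2:**
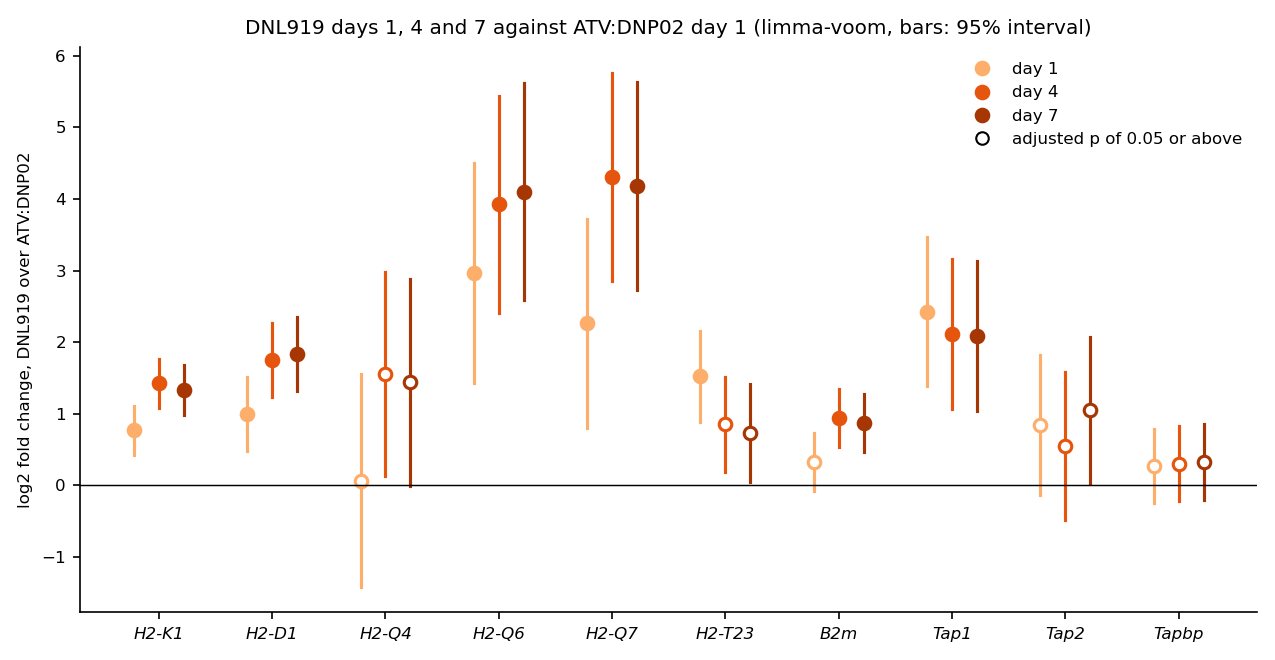
Log2 fold change of DNL919 over ATV:DNP02 (vertical axis) for each of the 10 genes (horizontal axis) at day 1, day 4 and day 7, with bars for the 95% interval of limma-voom and open circles for an adjusted p of 0.05 or above. H2-Q7 stood at 2.26, 4.31 and 4.18, H2-T23 at 1.53, 0.85 and 0.73, and Tapbp at 0.27, 0.30 and 0.32.

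Of the genes that supply and load peptide, Tap1 was raised and Tap2 and Tapbp were not called. Tap1, an ATP-binding subunit of the peptide transporter (chr17:34187553-34197225), had 11.2, 27.6 and 58.7 CPM as lowest, median and highest at DNL919 day 1, 14.8, 20.8 and 40.9 CPM at day 4, and 11.7, 24.2 and 41.1 CPM at day 7. The controls had 0, 5.30 and 14.9 CPM in ATV:DNP02 and 2.86, 13.5 and 18.4 CPM in vehicle, so 6, 5 and 6 of the 8 DNL919 libraries were above every control. Over ATV:DNP02 the log2 fold change was 2.43 ± 0.52 at day 1 (adjusted p = 2.03e-04), 2.12 ± 0.52 at day 4 (adjusted p = 0.0196) and 2.09 ± 0.52 at day 7 (adjusted p = 0.0261). The later calls each hung on single libraries: the day 4 call was lost without ATV:DNP02 replicate 5, 6, 7 or 8 or DNL919 day 4 replicate 8 (log2 fold change 1.75 to 2.02, adjusted p = 0.0505 to 0.0764), and the day 7 call without any of the same 4 ATV:DNP02 libraries or DNL919 day 7 replicate 3, 5 or 6 (1.71 to 2.00, adjusted p = 0.0539 to 0.0860).

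Tap2, the partner subunit (chr17:34203527-34216321), had medians of 9.67, 11.6 and 13.6 CPM at DNL919 day 1, day 4 and day 7, against 6.36 CPM in ATV:DNP02 and 15.2 CPM in vehicle, and 1 of 8 libraries on each day was above every control. Its log2 fold change over ATV:DNP02 was 0.84 at day 1 (95% interval -0.13 to 1.82), 0.55 at day 4 (-0.49 to 1.58) and 1.05 at day 7 (0.03 to 2.07), with adjusted p = 0.177, 0.754 and 0.408. Tapbp, which bridges the transporter and an empty heavy chain (chr17:33915899-33929288), had medians of 147, 139 and 154 CPM at DNL919 day 1, day 4 and day 7, against 161 CPM in ATV:DNP02 and 126 CPM in vehicle. Its log2 fold change was 0.27 at day 1 (95% interval -0.25 to 0.79), 0.30 at day 4 (-0.22 to 0.83) and 0.32 at day 7 (-0.21 to 0.85), with adjusted p = 0.440, 0.724 and 0.707. The intervals thus reached up to 0.85 for Tapbp and up to 2.07 for Tap2.

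The unequal response of the transporter subunits was tested within libraries, where no scaling between libraries enters. The log2 ratio of Tap1 to Tap2 counts averaged 1.22 ± 0.59 at DNL919 day 1, 1.31 ± 1.03 at day 4 and 1.04 ± 1.41 at day 7, against -0.59 ± 1.07 in ATV:DNP02 (SD, n = 8 each). In vehicle, which was not part of the test, it averaged -0.33 ± 0.43 (SD, n = 6). The difference was 1.81 at day 1 and 1.90 at day 4, both past the exact permutation test (2-sided, 12870 assignments, adjusted p = 0.00373 and 0.00559). At day 7 it was 1.63 and did not pass (adjusted p = 0.0684), and without DNL919 day 7 replicate 2 it was 1.89 and did (adjusted p = 0.0174). With assignments kept within a batch, the 3 days gave adjusted p = 0.00926, 0.0185 and 0.0463 in the exact test. Few counts weigh on these means. ATV:DNP02 replicate 7 held 0 Tap1 and 1 Tap2 counts, and replicate 8 held 3 and 22, the lowest ratio of its group at -2.68. DNL919 day 7 replicate 4 held 31 and 2, the highest of its group at 3.66. The median ratios were 1.15, 1.21 and 0.90 at DNL919 day 1, day 4 and day 7, against -0.29 in ATV:DNP02.

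**Figure D3:**
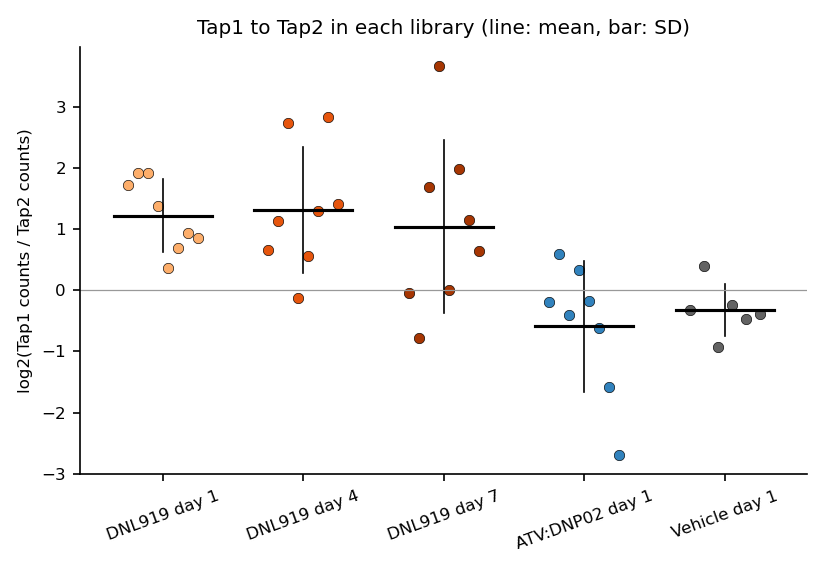
Log2 ratio of Tap1 to Tap2 counts (vertical axis, 0.5 added to each count) in each library, by group; points are mice, the horizontal bar is the group mean and the vertical bar 1 SD to each side. The DNL919 means were 1.22, 1.31 and 1.04 at day 1, day 4 and day 7, against -0.59 in ATV:DNP02.

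The course after the dose was compared directly, without a control, between DNL919 days. From day 1 to day 4, 4 of the 10 genes rose and none fell, when 31.9% of all genes were called. They were H2-Q7, by 2.05 on the log2 scale (adjusted p = 5.90e-05), H2-K1, by 0.66 (adjusted p = 0.00191), H2-D1, by 0.75 (adjusted p = 0.0154), and B2m, by 0.61 (adjusted p = 0.0136). H2-T23 had a day 4 minus day 1 difference of -0.67 (adjusted p = 0.0654), H2-Q4 of 1.49 (adjusted p = 0.0857), H2-Q6 of 0.95 (adjusted p = 0.128), Tap1 of -0.31, Tap2 of -0.30 and Tapbp of 0.03. Leaving out DNL919 day 4 replicate 1 took the H2-D1 difference to 0.62 (adjusted p = 0.0566) and the H2-T23 difference to -0.95 (adjusted p = 0.0142). H2-T23 was also called without DNL919 day 1 replicate 6 or 8, day 4 replicate 8 or day 7 replicate 5 (-0.68 to -0.79, adjusted p = 0.0303 to 0.0471), and H2-Q4 without day 4 replicate 3 (1.74, adjusted p = 0.0443).

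Between day 7 and day 4 no member was called, and 0% of all genes were: limma-voom called 0 of 11189, with 483 genes and no member below an unadjusted p of 0.05, while DESeq2 called 1 gene and edgeR 0. The log2 differences of the members, day 7 minus day 4, lay between -0.13 for H2-Q7 and 0.50 for Tap2. H2-K1 differed by -0.09, H2-D1 by 0.09, H2-Q6 by 0.18 and B2m by -0.07.

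Other genes of the pathway were read from lists. The immunoproteasome is a form of the proteasome whose exchanged subunits favour peptides that fit class I grooves, and its 5 listed genes all rose over ATV:DNP02 at day 1, 1 of 5 at day 4 and none at day 7, when 35.8%, 1.81% and 1.51% of all genes were called. Over vehicle the counts were 5, 1 and 1, Psmb9 being the gene called at day 4 and at day 7. Psme2, a subunit of the PA28 activator, had 192, 470 and 654 CPM as lowest, median and highest at DNL919 day 1, 44.5, 101 and 172 CPM at day 4, and 64.9, 91.7 and 174 CPM at day 7, against 44.0, 79.0 and 99.5 CPM in ATV:DNP02 and 45.0, 61.6 and 75.3 CPM in vehicle. At day 1 its 8 libraries lay above every control, and at day 4 and day 7 they overlapped. Its log2 fold change over ATV:DNP02 was 2.68 ± 0.20 at day 1 (adjusted p = 5.35e-14), 0.53 at day 4 (adjusted p = 0.254) and 0.54 at day 7 (adjusted p = 0.282), and from day 1 to day 4 it fell by 2.15 on the log2 scale (adjusted p = 1.48e-11).

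The other 4 were the partner activator subunit Psme1 (log2 fold change over ATV:DNP02 of 1.61, 0.82 and 0.52 at day 1, day 4 and day 7) and the catalytic subunits Psmb8 (1.27, 0.58 and 0.57), Psmb10 (0.71, -0.15 and 0.09) and Psmb9 (0.55, 0.58 and 0.38). Of these values, all at day 1 and that of Psme1 at day 4 passed the test. From day 1 to day 4, Psme1, Psmb8 and Psmb10 fell by 0.79, 0.70 and 0.85 on the log2 scale, while Psmb9 differed by 0.03. Thus 4 of the 5 fell between day 1 and day 4, when 31.9% of all genes were called in either direction. Of the 10 class I members 4 rose in the same comparison, which is near that share.

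Of 12 genes for peptide loading and trimming, 6 rose over ATV:DNP02 at day 1, beside 35.8% of all genes called in either direction, and none rose on a later day. They included Calr, the chaperone calreticulin (log2 fold change over ATV:DNP02 1.00, adjusted p = 1.46e-08), Pdia3, which is held with tapasin in the loading complex (0.74, adjusted p = 6.76e-05), and Erap1, the aminopeptidase that trims peptides in the endoplasmic reticulum (1.04, adjusted p = 7.22e-04). At day 4 the log2 fold changes of these 3 were 0.01, 0.01 and 0.32. Of 7 other class I-like heavy chains that were tested, H2-T22, a ligand of some gamma-delta T cells, was called at day 1 and day 4 (1.26 and 1.40) and had 1.12 at day 7 (adjusted p = 0.117). H2-M3, which binds N-formylated peptides, had 0.38 at day 1 (adjusted p = 0.230) and rose by 1.30 at day 4 (adjusted p = 0.00106) and by 1.53 at day 7 (adjusted p = 7.06e-05). At day 7 its 8 libraries, at 89.9 to 214 CPM, lay above all controls, which reached 75.6 CPM in ATV:DNP02 and 72.2 CPM in vehicle. Cd1d1 and Mr1, which present lipids and small metabolites, fell by 1.39 and 1.15 at day 1 (adjusted p = 0.00183 and 0.0152) and were not called later. Over the whole list of 26 tested of 37, 9 rose and 4 fell at day 1, 4 rose at day 4 and 2 at day 7, with median log2 fold changes of 0.43, 0.01 and 0.10.

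Of the 7 listed transcription factors, 2 rose and 2 fell at day 1 over ATV:DNP02, 2 rose at day 4 and 1 at day 7. Those that fell were Irf2, an interferon regulatory factor (log2 fold change -0.57, adjusted p = 0.0110), and Rfxank, a subunit of the RFX complex of MHC promoters (-1.09, adjusted p = 0.00604), while Irf1 had 0.48 (adjusted p = 0.0516). Nlrc5, the class I transactivator, had medians of 8.47, 6.03 and 2.41 CPM at DNL919 day 1, day 4 and day 7, against 0.40 CPM in ATV:DNP02 and 1.87 CPM in vehicle. It rose at day 1 (3.29, adjusted p = 1.57e-04) and day 4 (2.76, adjusted p = 0.0255) but was not called at day 7 (1.61, adjusted p = 0.383). Its counts were few, 250, 139 and 51 over the DNL919 groups against 21 over ATV:DNP02. The listed interferon-stimulated genes outside the class I pathway were called up in 23, 14 and 6 of 25 over ATV:DNP02 at day 1, day 4 and day 7 (35.8%, 1.81% and 1.51% of all genes were called in either direction), with medians of 4.52, 2.91 and 2.19. Over vehicle the counts were 23, 4 and 2 of 25 (33.4%, 1.08% and 0.965% of all genes). From day 1 to day 4, 18 of the 25 fell, when 31.9% of all genes were called in either direction. Of 9 MHC class II genes tested, which present peptides from outside the cell, 1 rose (H2-DMb1, 0.73) and 1 fell (H2-Ob, by 0.65) at day 1, and 1 rose (H2-Ob, 0.86) at day 4 and none at day 7.

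**Figure D4:**
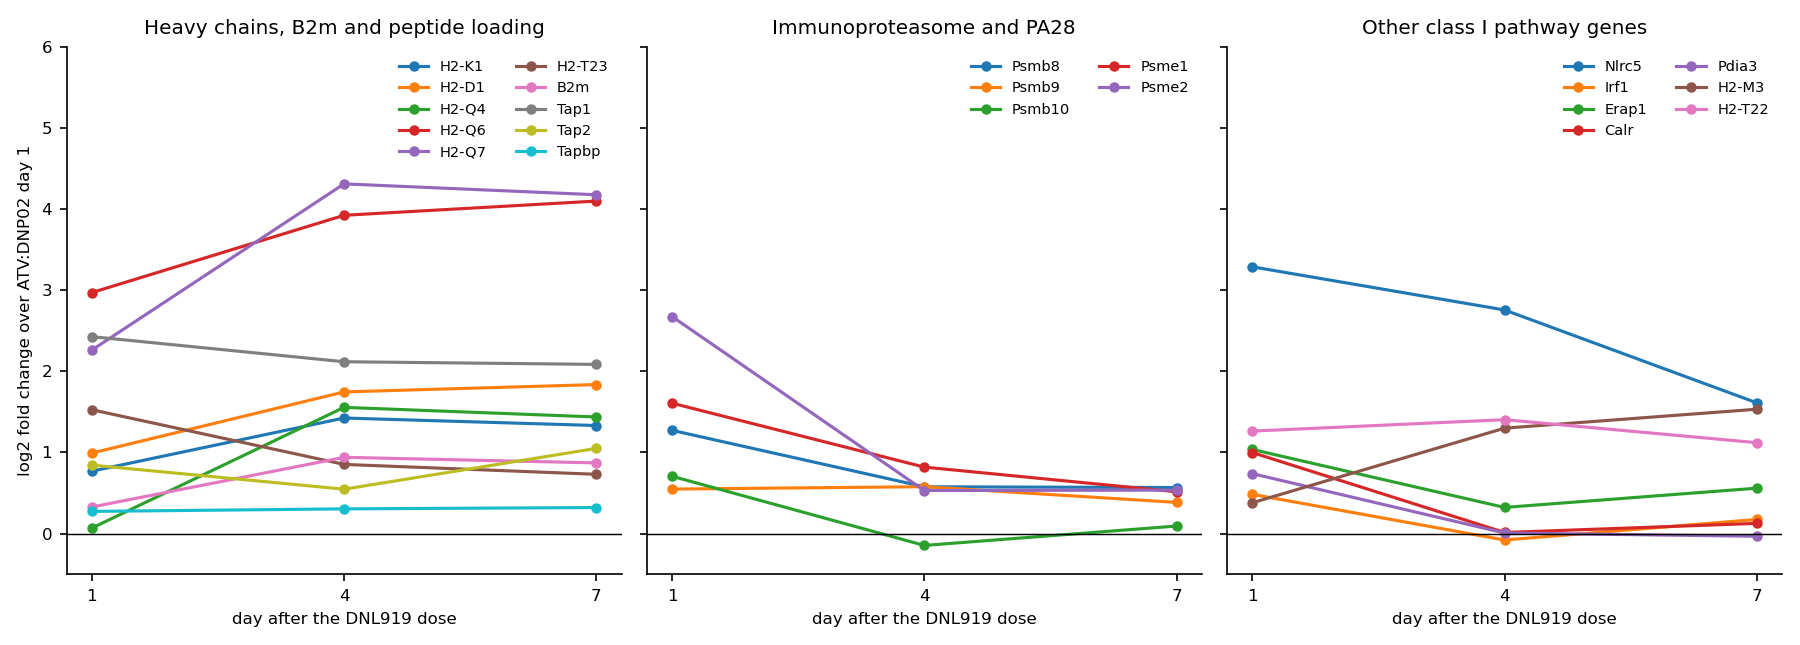
Log2 fold change over day 1 ATV:DNP02 (vertical axis) at day 1, day 4 and day 7 after DNL919 (horizontal axis), with 1 line per gene, for the 10 class I members (left), the immunoproteasome and its PA28 activator (middle) and 7 other genes of the pathway (right). H2-Q7 runs 2.26, 4.31 and 4.18, Psme2 runs 2.68, 0.53 and 0.54, and Nlrc5 runs 3.29, 2.76 and 1.61.

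Against vehicle, 5 of the 10 genes rose on each day. At day 1 these were H2-K1, H2-D1, H2-Q6, H2-T23 and Tap1, with log2 fold changes of 0.86, 1.20, 2.52, 1.63 and 1.49, when 33.4% of all genes were called, and H2-Q7 had 2.00 (adjusted p = 0.0566). At day 4 they were H2-K1, H2-D1, H2-Q6, H2-Q7 and B2m, at 1.51, 1.96, 3.47, 4.05 and 0.93, when 1.08% of all genes were called. At day 7 they were the same 5, at 1.42, 2.05, 3.65, 3.92 and 0.86, when 0.965% of all genes were. Tap1 had 1.18 at day 4 and 1.15 at day 7 over vehicle (adjusted p = 0.258 and 0.277), and its median was 5.30 CPM in ATV:DNP02 against 13.5 CPM in vehicle. Single libraries decided several of these calls. At day 4, H2-Q6 and B2m were both lost without DNL919 day 4 replicate 4 or 8 or vehicle replicate 6, which left 3 genes. At day 7 both were lost without vehicle replicate 1, 3 or 6, which again left 3 genes. At day 1, Tap1 was lost without vehicle replicate 1 (1.23, adjusted p = 0.0571), H2-Q6 without vehicle replicate 5 (2.19, adjusted p = 0.0596), and H2-Q7 was gained without DNL919 day 4 replicate 4, 5, 6 or 7 (1.96 to 2.02, adjusted p = 0.0188 to 0.0495).

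The control antibody itself was compared with vehicle at day 1. No member was called in ATV:DNP02 against vehicle, and 0% of all genes were: limma-voom called 0 of 11189 genes, 498 genes (4.45%) and no member had an unadjusted p below 0.05, edgeR called 0 and DESeq2 called 2. The log2 differences, ATV:DNP02 minus vehicle, were between -0.94 for Tap1 and 0.21 for H2-D1, with Tap2 at -0.83 and H2-Q4 at -0.68. The Tap1 to Tap2 ratio was tested against ATV:DNP02 alone.

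Sexes and batches were compared next. The male minus female difference in the day 1 effect was called for no member and for 0% of all genes. Limma-voom called 0 genes, with 609 genes below an unadjusted p of 0.05, edgeR called 0 and DESeq2 called 8. The 3 members below an unadjusted p of 0.05 were Tap1, Tap2 and Tapbp, with male minus female differences of 2.41, 2.30 and 1.12 (limma-voom adjusted p = 0.867 for each). In males alone the day 1 log2 fold change over ATV:DNP02 was 3.84 for Tap1 and 2.10 for Tap2, against 1.43 and -0.19 in females alone. The male ATV:DNP02 libraries, replicates 5 to 8, held 7, 9, 0 and 3 Tap1 counts. Vehicle minus ATV:DNP02 in mean log2 CPM was 1.93 and 4.48 for Tap1 and 1.88 and 2.72 for Tap2 in male batches 3 and 4. In female batches 1 and 2 it was -0.94 and -0.36 for Tap1 and -0.41 and -0.13 for Tap2. Batches 1 and 4 held 1 vehicle library each. Whether the larger male values reflect a low ATV:DNP02 level was not tested. For H2-K1 the day 1 log2 fold change was 0.75 in males and 0.73 in females, and for H2-Q7 it was 2.33 in males and 2.18 in females. Fitted on males alone, 1 member was called at day 1 and none at day 4 or day 7, when 8.44% of genes were called at day 1, 2 genes at day 4 and 0 at day 7. In females alone Tap1 was not called at day 4 (1.08, adjusted p = 0.272) or day 7 (0.61, adjusted p = 0.652), nor H2-Q6 at day 7 (3.99, adjusted p = 0.0519). The fit on females called 31.1%, 1.33% and 1.23% of genes over ATV:DNP02 at day 1, day 4 and day 7. Within batches, Tap1 in DNL919 was higher than ATV:DNP02 in 4 of 4 batches on every day, by 0.27 to 5.31 in mean log2 CPM. The 5.31 was in batch 4 at day 4, where the ATV:DNP02 libraries held 0 and 3 Tap1 counts. For vehicle the same Tap1 difference ran from -0.94 to 4.48 and was above 0 in 2 of 4 batches. In DNL919, B2m was higher than ATV:DNP02 in 3, 4 and 4 batches, H2-T23 in 4, 4 and 3, H2-Q4 in 3, 4 and 4, Tap2 in 3 of 4 on each day and Tapbp in 2, 3 and 2.

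The members did not vary together as 1 block. Over the 38 libraries, H2-K1 and H2-D1 had r = 0.94, and r = 0.81 on residuals after group and batch. H2-D1 and H2-T23 had r = 0.69 (residuals 0.77) and H2-D1 and Tapbp r = 0.65 (residuals 0.71), while H2-K1 and B2m had r = 0.60 (residuals 0.18). All of these are descriptions over libraries that share scaling and depth. In 4 libraries a low B2m stood beside a high Tapbp: DNL919 day 1 replicate 5 had 7733 CPM of B2m and 415 CPM of Tapbp, DNL919 day 7 replicate 5 had 10501 and 434 CPM, ATV:DNP02 replicate 1 had 7072 and 249 CPM, and vehicle replicate 4 had 8133 and 235 CPM. Each was the lowest of its group in B2m and the highest in Tapbp, and they held 6.24, 3.87, 3.48 and 3.15 M counts, with 1.6%, 2.04%, 3.74% and 4.45% of them in Malat1. By contrast, DNL919 day 4 replicate 1 was the highest of its group in Tapbp at 409 CPM and had 17829 CPM of B2m, above every control. DNL919 day 4 replicate 6 was the lowest library of its group in H2-K1 (545 CPM), H2-D1 (295 CPM), B2m (8636 CPM), H2-Q7 (14.1 CPM) and H2-T23 (13.2 CPM). That library held 1.87 M counts, the fewest of its group, and 5.88% of them were in Malat1, the highest share of its group.

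The Malat1 share moved with the groups and, within groups, with several members. On residuals after group and batch (n = 38 libraries), r with the Malat1 share was -0.75 for H2-T23, -0.69 for H2-D1, -0.59 for Tapbp and -0.39 for H2-K1, and lay between -0.35 and 0.23 for the other 6. With the Malat1 share as a covariate, none of the 6 day 1 calls over ATV:DNP02 remained, when 17.8% of all genes were called, against 35.8% without it: H2-K1 had a log2 fold change of 0.28 (adjusted p = 0.471), H2-Q6 1.43, H2-Q7 1.20 and Tap1 1.27, H2-D1 and H2-T23 took negative values of -0.41 and -0.40, and Tapbp was called at -1.0 (adjusted p = 0.0247). At day 4 the same covariate left H2-K1 (1.15), H2-D1 (0.96), H2-Q6 (3.12), H2-Q7 (3.78) and B2m (1.04) called and Tap1 not (1.44, adjusted p = 0.117). At day 7 it likewise left H2-K1 (1.03), H2-D1 (0.98), H2-Q6 (3.06), H2-Q7 (3.48) and B2m (0.98) called, and Tap1 had 1.29 (adjusted p = 0.241). The Malat1 share ran from 1.6% to 4.12% at DNL919 day 1 and from 3.74% to 6.67% in ATV:DNP02, so these ranges overlapped little. At day 1 the share and the treatment therefore cannot be told apart by this fit. A fit with the library total as a covariate was chosen after seeing the data. In it H2-D1 had 0.28 (adjusted p = 0.536), H2-T23 0.66 (adjusted p = 0.189) and H2-Q7 2.06 (adjusted p = 0.0581) at day 1, B2m was called (0.73, adjusted p = 0.0211), and the calls of H2-K1, H2-Q6 and Tap1 held.

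**Figure D5:**
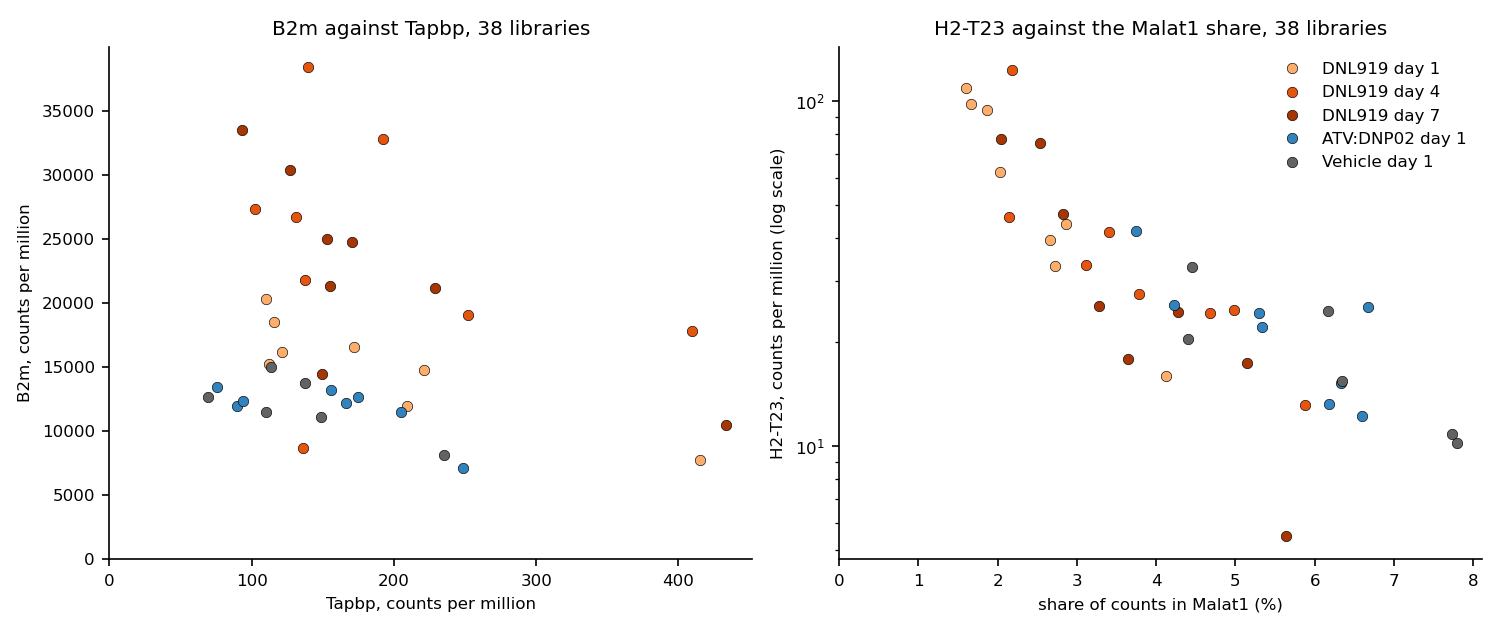
Left, B2m against Tapbp in CPM for each of the 38 libraries; right, H2-T23 in CPM (log scale) against the percent of counts in Malat1. Points are mice, coloured by group. On the left the DNL919 libraries with the most Tapbp, at 415 and 434 CPM, have 7733 and 10501 CPM of B2m, while the next, at 409 CPM, has 17829 CPM. On the right r = -0.75 on residuals after group and batch.

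The genes whose pattern was most like that of the members were ranked by Pearson r with the mean of the 10 members' scaled log2 CPM over the 38 libraries. Among the first 8 were Lgals3bp (r = 0.92), H2-M3 (0.85), Ifi27l2a (0.83), Grn (0.81), Timp2 (0.78), Oasl2 (0.78) and P2rx4 (0.77). Lgals3bp had medians of 641, 760 and 580 CPM at DNL919 day 1, day 4 and day 7, against 109 CPM in ATV:DNP02 and 112 CPM in vehicle. On residuals after group and batch they included Lgals3bp (0.81), Grn (0.71), Psap (0.69), Gltscr2 (0.68), Mtmr14 (0.68), Tlr2 (0.67) and Hax1 (0.66). These r values are descriptions over libraries that share depth and scaling.

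Markers of cells other than microglia that the CD11b gate can hold were set beside these results. Border-associated macrophage markers, 8 of 8 detected, summed to 116 to 577 CPM at DNL919 day 1, 99.9 to 491 at day 4 and 178 to 826 at day 7, against 278 to 1195 CPM in ATV:DNP02 and 299 to 638 CPM in vehicle, and Cbr2, Stab1 and Ms4a7 of that list fell at day 1 and Cbr2 at day 4 over ATV:DNP02. Microglial markers moved as well: P2ry12, Siglech, Sall1, Cx3cr1 and Gpr34 fell and Aif1 rose at day 1, of 11 tested, and P2ry12 fell at day 4 and P2ry12 and Gpr34 at day 7. Beside these marker calls, 35.8%, 1.81% and 1.51% of all genes were called over ATV:DNP02 at day 1, day 4 and day 7 in either direction. Monocyte markers, 7 in the sheet, summed to medians of 123, 38.9 and 59.95 CPM at DNL919 day 1, day 4 and day 7 with highest values of 241, 274 and 3143 CPM, against a median of 105 and a highest value of 240.2 CPM in ATV:DNP02 and 63.2 and 215 CPM in vehicle. Dendritic cell markers, 6 in the sheet, had medians of 36.9, 5.12 and 11.1 CPM with highest values of 171, 27.0 and 61.5 CPM on those days, against 10.7 and 30.2 CPM in ATV:DNP02 and 19.4 and 57.9 CPM in vehicle. No monocyte or dendritic cell marker was called over either control. Markers that failed the low-count filter were not tested, so the absence of calls does not show that these cells were unchanged. T and NK cell markers had a median sum of 0 CPM in every group and were all 8 at 0 in vehicle. Neutrophil markers had medians of 0 to 10.3 CPM but reached 46598 CPM in DNL919 day 7 replicate 7 and 7190 CPM in a day 4 library. DNL919 day 7 replicate 7 was also the library highest in monocyte markers, and DNL919 day 1 replicate 2 that highest in dendritic cell markers. Leaving out the library highest in neutrophil, monocyte, dendritic cell, border-associated macrophage or endothelial markers changed no member's call or direction over ATV:DNP02.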

How the data were processed

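Microglia were sorted from brains of 38 mice and sequenced as 3′ libraries (SMARTSeq v4 3′ DE). Per the submitters' processing notes, the authors used STAR, featureCounts (Subread 1.6.2), edgeR and the build GRCm38.p6. Which gene annotation was counted is not given in the sources used here. The deposited sheet holds the authors' counts, of which values of 100 or more were rounded to 2 significant digits before deposit (6.48% of cells, 91.3% of counts), so a single large count is known to that precision only. The deposited library sizes and norm.factors, a ratio per library given by the authors, were used in an alternative only, and the normalized sheet was not used. A DNL919 dose of 1 mg/kg is named in the protocol and not analysed here.

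In R 4.3.3, counts were TMM-scaled with edgeR 4.0.16 and fitted by the voom method of limma 3.58.1 with group and batch as terms over all 38 libraries, after edgeR's filter (minimum count 10, minimum total 15, proportion 0.7), which left 11189 genes; tests were 2-sided with Benjamini-Hochberg adjustment at 0.05. Ratios of 2 members in a library (0.5 added to each count) were compared by an exact permutation test of 8 against 8 that ignores batch, and, as an alternative chosen after seeing the data, by one with assignments kept within each batch of 2 against 2. Mice of a group are separate animals. No pair of libraries of a group held identical counts, and no library went against its sex label. Each group's counts per library limit the precision of low genes (H2-Q4, H2-Q6, Nlrc5), and PCR reads without molecular identifiers are not independent molecules. The limma-voom fit was tested on simulated counts, and the exact permutation test that ignores batch on a small set of values with a known p-value. The other steps had no such test.

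Alternatives were edgeR's quasi-likelihood test, DESeq2 1.42.0, other scalings, no filter, no batch term, only the groups compared, one sex, thinning to the lowest total, library weights, the Malat1 share as a covariate, marker-high libraries left out and each library left out in turn. A library total covariate and leaving out the deepest library, or the one lowest in Malat1, of each group were chosen after seeing the data. The 10 members and all gene lists were chosen with earlier results of these data known, and all 10 are named in every comparison; other genes are named from the listed pathway by their part in it, and the genes most like the members by the 8 highest r, and 1 gene of both is not reported here. Transcripts for shared 50-base windows came from the GRCm38 annotation and promoters from RefSeq.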

Additional observations from a re-analysis of the deposited data

Results flagged for a closer look

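In 9 of 50 groups of a member's CPM (18%), 1 library stood apart from the others of its group by the ratio of its gap to the group's range. About 1 in 20 would do so if the values were normally distributed and independent. Linear CPM of few counts need not be normal and the members share libraries, so the 18% cannot be read against that rate. At DNL919 day 1, replicate 5 was highest in Tap2, at 45.8 CPM with the next library at 15.2 CPM, and in Tapbp, at 415 CPM with the next at 221 CPM. At DNL919 day 4, replicate 1 was highest in H2-Q6, at 52.6 CPM with the next at 15.5 CPM, and in H2-T23, at 123 CPM with the next at 46.1 CPM. At DNL919 day 7, replicate 5 was highest in Tapbp, at 434 CPM with the next at 229 CPM. In ATV:DNP02, replicate 3 was highest in H2-K1, at 639 CPM with the next at 468 CPM, and in H2-Q6, at 7.19 CPM with the next at 2.56 CPM. ATV:DNP02 replicate 1 was highest in H2-T23, at 41.9 CPM with the next at 25.6 CPM, and lowest in B2m, at 7072 CPM with the next at 11517 CPM.

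The effect of DNL919 at day 4 differed from that at day 1 for 4 members, by the direct limma-voom contrast of the days: the log2 difference, day 4 minus day 1, was 0.66 for H2-K1, 0.75 for H2-D1, 2.05 for H2-Q7 and 0.61 for B2m. In the same contrast 31.9% of all genes were called in either direction, so such a difference is not particular to these 4 members. Both days are set against the same controls, and the day of collection cannot be told apart from the time since the dose.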

How the results depend on the processing

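Of 1862 member results recomputed under settings other than leaving out 1 library, 1590 kept their direction and call. edgeR and DESeq2 kept every member's call over ATV:DNP02. Fitted on males only, the members called fell to 1 over ATV:DNP02 at day 1 and to 0 at day 4 and day 7. They also fell to 0 over vehicle on each day and for day 4 against day 1. That fit has fewer samples than the main fit, but the fit on females only has as many mice. It called 31.1% of all genes over ATV:DNP02 at day 1, against 8.44% in males only, and the cause was not tested. With the Malat1 share as a covariate, 1 member was called at day 1 over ATV:DNP02 (Tapbp, reversed to -1.0), 0 at day 1 over vehicle and 1 at day 7 over vehicle, while the share of all genes called was 17.8%, 13.3% and 0.349%; H2-D1 and H2-T23 turned to -0.41 and -0.40 over ATV:DNP02 and to -0.36 and -0.45 over vehicle at day 1, and the cause was not tested. Without the library lowest in Malat1 of each group, 3 members were called at day 1 over vehicle, Tap2 among them at -1.20 (adjusted p = 0.0425). In that fit 31% of all genes were called. With the library total as a covariate 2 members were called, beside 22.2% of all genes. The cause was not tested. Without the low-count filter and without the batch term, 3 members each were called at day 4 and at day 7 over vehicle. The share of all genes called was then 0.281% and 0.257% without the filter and 0.545% and 0.295% without the batch term.

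Leaving out 1 library at a time gave 5 to 6 members called over ATV:DNP02 on each day, 4 to 6 over vehicle at day 1 and 3 to 5 at day 4 and at day 7, and 4 to 5 for day 4 against day 1. The H2-T23 to H2-K1 difference at day 4 ran from -0.88 to -0.57 and the Tap1 to Tap2 difference at day 7 from 1.25 to 1.89. With assignments kept within a batch, which was chosen after seeing the data, the differences of 0.32 for H2-D1 to H2-K1, -0.48 for B2m to H2-K1 and -0.72 for H2-T23 to H2-K1 at day 4 and of 1.63 for Tap1 to Tap2 at day 7 passed the test. No paired analysis was possible because the replicate numbers follow accession order and pair no mice. Few counts limit H2-Q4, where a change was not detectable rather than absent, and H2-Q6, rounding limits large counts, and shared sequence limits the split of the Q genes.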
